A study of Rattus norvegicus with 6 samples.

Results

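miR-210, a miRNA known for its induction by low oxygen, and miR-126, a miRNA of endothelial cells, were examined in rat brain small RNA libraries from the 2-vessel occlusion (2VO) model. The members were taken by name from the deposited table and comprised 5 of its 775 miRNAs, namely rno-miR-210-3p, rno-miR-210-5p, rno-miR-126a-3p, rno-miR-126a-5p and rno-miR-126b. The comparison was between 3 libraries of the 2VO group and 3 libraries of the tilianin-treated 2VO group. Male Sprague–Dawley rats, 7 weeks old when purchased, had both common carotid arteries ligated in each group. Tilianin, a flavonoid glycoside, was given at 40 mg/kg daily by gastric tube for 4 weeks in 0.5% carboxymethylcellulose sodium, and the 2VO rats received this vehicle alone at 5 mL/kg over the same time. The libraries therefore share the occlusion, and the sham group was not analysed here. The labels give the tissue as brain, and the study's figure caption for its miRNA sequencing names cortical tissue. The sources used here do not say whether each library is 1 rat, so p-values measure the spread between these libraries, which may be technical.

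Mature miRNAs are cut from both arms of an RNA hairpin, named 5p and 3p, and recognise their targets mainly through the seed, bases 2 to 8. Transcription of miR-210 is raised by hypoxia-inducible factors when oxygen is low, and its targets include the iron-sulfur cluster scaffold ISCU of mitochondrial respiration and the receptor ligand ephrin-A3. The miR-126 hairpin lies within Egfl7, a gene for a secreted factor of endothelium. miR-126-3p is abundant in endothelial cells and acts on SPRED1 and PIK3R2, which restrain signalling downstream of VEGF, while miR-126-5p acts on the Notch regulator DLK1. In brain, endothelial cells line the vessels, whose flow from the carotid arteries the occlusion reduces.

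The mature sequences are shown first because the counts of these miRNAs divided by genomic strand and because a further miRNA in the table, rno-miR-3574, is the exact reverse complement of rno-miR-210-3p. They are from RefSeq on the GRCr8 assembly, in which 689 of the 775 names were found, and are written 5′ to 3′ with the seed in capitals. The positions are those of GRCr8 and may differ from those of the build used by the authors, which is not given in the sources used here.
rno-miR-210-3p: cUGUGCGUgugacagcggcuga
rno-miR-210-5p: aGCCACUGcccacagcacacug
rno-miR-3574: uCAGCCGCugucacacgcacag
rno-miR-126a-3p: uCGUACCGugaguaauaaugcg
rno-miR-126a-5p: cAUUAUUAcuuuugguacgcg
rno-miR-126b: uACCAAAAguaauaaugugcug

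In GRCr8 rno-miR-210-3p lies on the minus strand at chr1:205755946-205755967 and rno-miR-210-5p on the same strand at chr1:205755984-205756005, inside the long non-coding RNA gene LOC102553043. rno-miR-3574 has the same span as rno-miR-210-3p, chr1:205755946-205755967, on the plus strand. rno-miR-126a-5p lies on the plus strand at chr3:29813182-29813202 and rno-miR-126a-3p at chr3:29813219-29813240, within Egfl7, which has the same orientation. rno-miR-126b lies on the opposite strand at chr3:29813177-29813198 and shares 17 positions with rno-miR-126a-5p, over which the sequences are fully complementary. RefSeq gives the hairpin of rno-miR-126a the symbol Mir126b and that of rno-miR-126b the symbol Mir126a. None of the other matched miRNAs in the table has the seed of any of these 5 members, so each seed stood for a single miRNA among the matched ones. The 86 unmatched miRNAs, with 29.9% of all reads, were not searched.

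Total counts ranged from 7428890 to 13198776 in the 2VO group and from 7175872 to 9464216 in the tilianin-treated 2VO group. Levels are counts-per-million (CPM) values, scaled to library size by edgeR's TMM method. Across the 454 tested miRNAs, tilianin-treated replicate 2 had Spearman correlations of 0.936 to 0.957 with the other libraries, below those among the remaining libraries. Values without it are given for miR-126a and for the lists in which it stood apart.

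Among the 5 members, only rno-miR-126a-3p and rno-miR-126a-5p had at least 10 counts in total and were tested. For both, the difference between the group means was smaller than the SD of the 2VO libraries. For rno-miR-126a-3p it was larger than the SD of the treated libraries (0.129 against 0.0621 in log2(CPM + 1)). rno-miR-210-3p and rno-miR-210-5p had 0 counts in all 6 libraries. rno-miR-126b had 3 counts or fewer in each. A miRNA was called by the study's thresholds if its unadjusted p-value was under 0.05 and its log2 fold change was beyond 1 in either direction. With edgeR's quasi-likelihood test 0 of the 2 tested members were called, and 0 passed the p-value threshold alone. The same thresholds called 5.73% of all tested miRNAs. DESeq2's Wald test and limma-voom also called 0.

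rno-miR-126a-3p was the most abundant member and ranked 24th of the table by mean CPM. It was at 4597, 4538 and 7201 CPM in 2VO replicates 1, 2 and 3. In tilianin-treated replicates 1, 2 and 3 it was at 5839, 5555 and 6052 CPM. The treated libraries lay close together, above 2VO replicates 1 and 2 and below 2VO replicate 3, so the groups overlapped. The 2VO mean was 5445 ± 1521 CPM and the treated mean 5816 ± 249 CPM (SD, n = 3 each). The log2 fold change was 0.09, with a standard error of 0.229. Its approximate 95% interval, from -0.45 to 0.64, spans 0.734-fold to 1.55-fold. The unadjusted p-value was 0.691 and the adjusted p was 0.919 (edgeR's quasi-likelihood test, Benjamini-Hochberg adjustment over all tested miRNAs). An exact permutation of log2(CPM + 1) of rno-miR-126a-3p gave a two-sided p of 0.6, where 0.1 is the smallest that 3 libraries against 3 allow.

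These values rest on large counts, from 36073 to 58798 reads per library. As a share of all counts, rno-miR-126a-3p made up 0.445% in 2VO replicate 2, with an exact binomial 95% interval of 0.442% to 0.449%, and 0.749% in 2VO replicate 3, with an interval of 0.743% to 0.755%. The difference between these replicates of the same group was thus larger than counting error. The coefficient of variation was 27.9% in the 2VO group and 4.29% in the treated group. Leaving out 2VO replicate 3 moved the log2 fold change to 0.34 (unadjusted p = 0.118, edgeR's quasi-likelihood test), whereas leaving out 2VO replicate 1 brought it to -0.01. Without treated replicate 2 it was 0.15 for rno-miR-126a-3p and 0.12 for rno-miR-126a-5p, with unadjusted p-values of 0.472 and 0.582 from the same edgeR test.

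**Figure D1:**
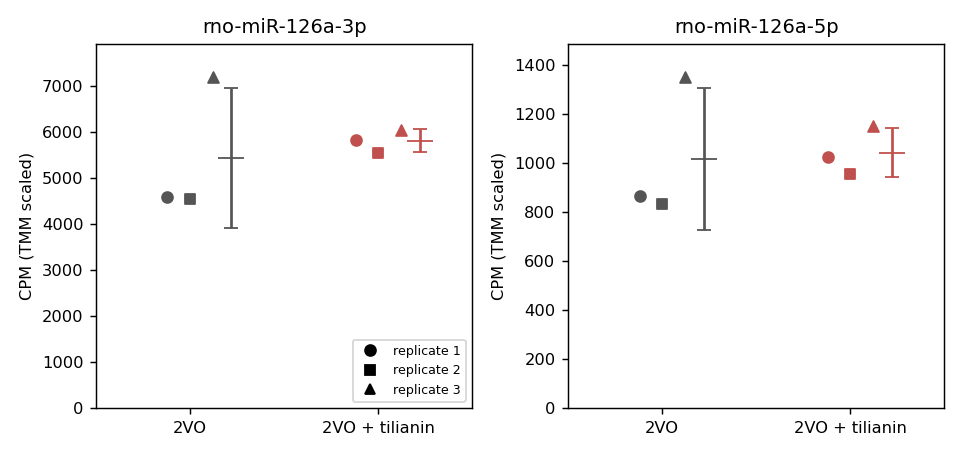
CPM after TMM scaling (y axis, from 0) of rno-miR-126a-3p (left) and rno-miR-126a-5p (right) in each library of the 2VO and tilianin-treated 2VO groups, with the mean and SD (bars, n = 3) beside the points. In each panel 2VO replicate 3 is the highest library, at 7201 and 1352 CPM, and the treated libraries lie between it and the other 2VO libraries.

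rno-miR-126a-5p, the arm opposite to it, was at 867, 834 and 1352 CPM in 2VO replicates 1, 2 and 3. The treated replicates 1, 2 and 3 had 1024, 954 and 1151 CPM. As for the 3p arm, the treated libraries lay between 2VO replicate 3 and the other 2VO libraries. The 2VO mean was 1018 ± 290 CPM and the treated mean 1043 ± 99.8 CPM (SD, n = 3 each). The log2 fold change was 0.04, its standard error 0.247 and its approximate 95% interval -0.55 to 0.62. The unadjusted p-value was 0.891 and the adjusted p was 0.968 (edgeR's quasi-likelihood test). Of all tested miRNAs, 18.3% had a smaller absolute log2 fold change than rno-miR-126a-3p and 6.39% had a smaller one than rno-miR-126a-5p.

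The arms moved together across libraries, which the choice of members did not use. Over the 6 libraries log2(CPM + 1) of rno-miR-126a-3p and rno-miR-126a-5p had a Pearson r of 0.973 (exact permutation p = 0.00278) and a Spearman rho of 1 (exact permutation p = 0.00278). Without 2VO replicates 2 and 3, the libraries farthest from the median, r was 0.910 over 4 libraries. This was the only relation tested, and both arms share the library and its scaling. Of 268 miRNAs with a mean of at least 10 CPM, rno-miR-126a-5p had the highest correlation with rno-miR-126a-3p, against a median of 0.0544. With the arms summed, miR-126a had a 2VO mean of 6463 ± 1810 CPM and a treated mean of 6859 ± 347 CPM (SD, n = 3 each). The difference in log2(CPM + 1) was 0.12 (two-sided exact permutation p = 0.6), and it was 0.0035 without 2VO replicate 2 and 0.34 without 2VO replicate 3.

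The share of the 5p arm among miR-126a counts does not depend on library scaling. It was 15.9%, 15.5% and 15.8% in 2VO replicates 1, 2 and 3. It was 14.9%, 14.7% and 16.0% in treated replicates 1, 2 and 3. Treated replicates 1 and 2 were below all 2VO libraries and treated replicate 3 was above them, so the groups overlapped. The means were 15.7 ± 0.180% and 15.2 ± 0.700% (SD, n = 3 each), a difference of -0.553 percentage points (two-sided exact permutation p = 0.4). The difference was -0.29 points without treated replicate 2 and -0.95 points without treated replicate 3. The 3p arm outnumbered the 5p arm by 5.26-fold to 5.82-fold in the 6 libraries. These are ratios of reads.

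**Figure D2:**
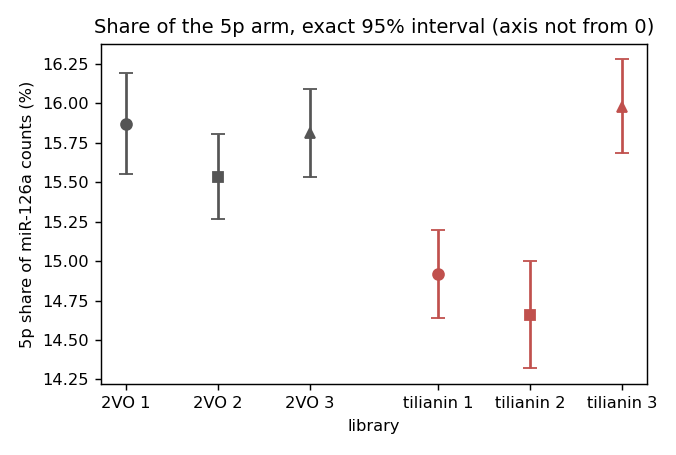
Share of the 5p arm among all miR-126a counts (y axis, percent, not starting at 0) in each of the 6 libraries (x axis), with exact binomial 95% intervals, which cover counting error only. The 2VO libraries lie between 15.5% and 15.9%, and the treated libraries at 14.9%, 14.7% and 16.0%.

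rno-miR-126b, annotated on the strand opposite to miR-126a, had 3, 2 and 2 counts in 2VO replicates 1, 2 and 3 and 1, 0 and 0 counts in treated replicates 1, 2 and 3. The groups did not overlap in CPM, which was also the case for 9.69% of all tested miRNAs. Those had at least 10 counts in total, so rno-miR-126b is not among them and the share is not for counts this low. All values were at or under 3 counts, the limit that a count of 0 allows, so no fold change is given. When all 551 miRNAs with a count were fitted, edgeR's quasi-likelihood test gave an unadjusted p-value of 0.0953 and an adjusted p of 0.806. Its 8 counts compare with 54272 counts of rno-miR-126a-5p, with which it overlaps.

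For miR-210, the counts of both arms were 0 of 53742081 over all libraries, which allows up to 3 counts, or 0.0558 CPM of the summed totals. Per library, the limit of 3 counts was 0.227 to 0.418 CPM of the unscaled total. rno-miR-126a-3p was at least 12024-fold higher than rno-miR-210-3p in each library, on this limit. These limits cover counting error only. They hold for reads counted under the names of miR-210, not for any miR-210 reads counted under another name. A ratio of miR-210 to miR-126a, a fold change of miR-210 and a comparison of its arms could not be computed.

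The row of rno-miR-3574, the reverse complement of rno-miR-210-3p at the same locus, was not at 0. It held 71, 92 and 62 counts in 2VO replicates 1, 2 and 3, or 7.74, 7.10 and 8.02 CPM. In treated replicates 1, 2 and 3 it held 61, 124 and 142 counts, or 6.62, 19.1 and 17.3 CPM. The 2VO libraries were close together, treated replicates 2 and 3 were more than the whole 2VO range above them, and treated replicate 1 was below all of them. The means were 7.62 ± 0.472 CPM and 14.4 ± 6.75 CPM (SD, n = 3 each). The log2 fold change was 0.91, its standard error 0.399 and its approximate 95% interval -0.03 to 1.85. With an unadjusted p-value of 0.0559 and an adjusted p of 0.652 (edgeR's quasi-likelihood test), rno-miR-3574 was not called. An exact permutation gave a two-sided p of 0.4. Of all tested miRNAs, 87.4% had a smaller absolute log2 fold change. Whether the authors counted by strand is not given in the sources used here, and without strand the reads of miR-210-3p and miR-3574 cannot be told apart.

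The value of rno-miR-3574 depended on treated replicate 1. Without it, the log2 fold change was 1.28 with an unadjusted p-value of 0.00132 and an adjusted p of 0.296 (edgeR's quasi-likelihood test), past both thresholds of the study. Without treated replicates 2 and 3 in turn it was 0.66 and 0.74, with unadjusted p-values of 0.0976 and 0.159 from the same edgeR test. DESeq2's Wald test gave an unadjusted p-value of 0.0398 and edgeR without a filter gave 0.0468, with log2 fold changes of 0.92 and 0.90 that stayed under 1.

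The counts in the table differed between the annotated strands. Of 391 miRNAs that GRCr8 places on the plus strand alone, 82 (21.0%) had fewer than 10 counts in total, compared with 201 (69.8%) of 288 on the minus strand alone. The median total was 626 counts on the plus strand and 0 on the minus strand. On chromosome 1, where miR-210 lies, 31 of 34 minus-strand miRNAs were at 0 in every library, compared with 6 of 33 on the plus strand. On chromosome 3, where miR-126 lies, 10 of 12 minus-strand miRNAs and 2 of 15 plus-strand miRNAs had fewer than 10 counts. All 5 members followed this division, since miR-210 and miR-126b are annotated on the minus strand and miR-126a on the plus strand.

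Hairpins with both arms in the table showed the same division. Both arms were at 0 in all libraries for 38 of 115 hairpins (33.0%) on the minus strand, miR-210 among them, and for 7 of 171 (4.09%) on the plus strand. There were 47 pairs of mature miRNAs that overlap on opposite strands, including rno-miR-3574 with rno-miR-210-3p and rno-miR-126a-5p with rno-miR-126b. In 41 of the 44 pairs with at least 10 counts together, the plus-strand miRNA held more counts, and 98.1% of the reads of these pairs were on plus-strand names. That share is weighted by abundant plus-strand miRNAs such as rno-miR-125b-5p (3454371 counts) and rno-miR-9a-5p (1714326 counts), so it does not by itself measure the division. Some minus-strand miRNAs were abundant, the highest being rno-miR-24-3p with 1490025 counts, rno-miR-27b-3p with 700867 and rno-let-7i-5p with 346059. The cause of the division was not tested. The count of 0 for miR-210 therefore gives a limit for this table and not for the tissue.

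**Figure D3:**
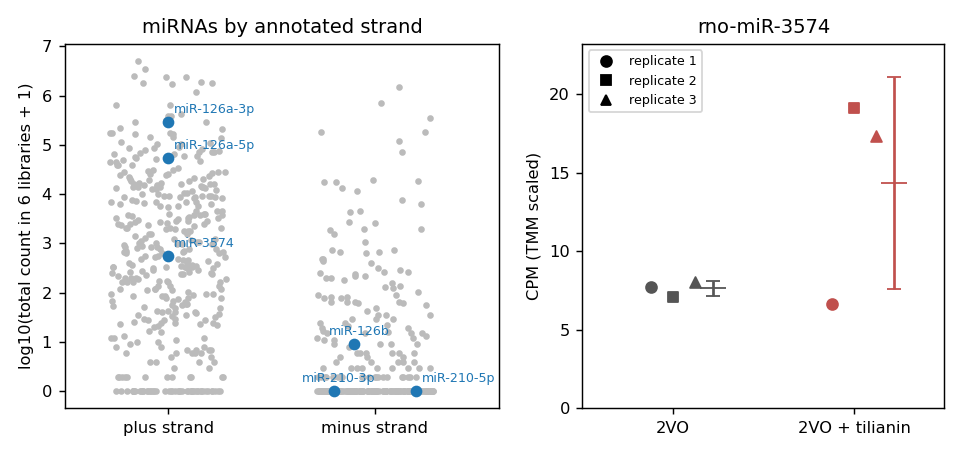
Left, log10 of the total count in 6 libraries plus 1 (y axis) for each miRNA that GRCr8 places on the plus or the minus strand alone, with the members and rno-miR-3574 in blue. Right, CPM of rno-miR-3574 in each library with the mean and SD (bars, n = 3). The minus-strand members lie at or near 0, rno-miR-126a-3p and rno-miR-126a-5p lie among the abundant plus-strand miRNAs, and treated replicates 2 and 3 are the highest libraries for rno-miR-3574, at 19.1 and 17.3 CPM.

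Other miRNAs reported to rise in cells under low oxygen were taken as a list of 15. Of these, 14 were tested and 0 were called in either direction. The same thresholds called 5.73% of all tested miRNAs, so 0 calls among so few do not set this list apart. The exception to testing was rno-miR-181c-5p, which was at 0 in every library. The median log2 fold change of the tested members was 0.12, beside -0.03 over all tested miRNAs. The most abundant were rno-miR-26a-5p, with group means of 92696 ± 2902 CPM (2VO) and 97134 ± 26645 CPM (treated), and rno-miR-24-3p, at 26941 ± 2904 CPM and 29243 ± 2729 CPM (SD, n = 3 each). Their log2 fold changes were 0.07 and 0.12. rno-miR-21-5p had the highest value of the list, 1.78 on the log2 scale with a standard error of 1.02, from 15 counts in all (unadjusted p = 0.13, edgeR's quasi-likelihood test). Of the 14 tested, 8 are annotated on the minus strand alone, rno-miR-21-5p among them, so the strand division limits these levels too. rno-miR-155-5p, at 0.95, was called upward with treated replicate 3 left out and with no other 1 library left out (1.19, unadjusted p = 0.0365).

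Among 8 miRNAs that endothelial cells express together with other cells, 7 were tested and 0 were called, beside 5.73% of all tested miRNAs. Their median log2 fold change was 0.09. The most abundant was rno-miR-221-3p, which in endothelial cells acts on the stem cell factor receptor KIT. It was at 3329, 3383 and 3073 CPM in 2VO replicates 1, 2 and 3 and at 2423, 256 and 3072 CPM in treated replicates 1, 2 and 3. The highest treated library reached the lowest 2VO library to within 1 CPM. rno-miR-222-3p, made from the same transcript, was at 751, 821 and 825 CPM in the 2VO libraries and at 912, 70.2 and 749 CPM in the treated libraries. Both were low in treated replicate 2, where rno-miR-126a-3p was at 5555 CPM, close to its other treated libraries. The log2 fold changes were -0.77 for rno-miR-221-3p and -0.47 for rno-miR-222-3p, with standard errors of 0.737 and 0.756. Without treated replicate 2 they were -0.24 and 0.07.

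**Figure D4:**
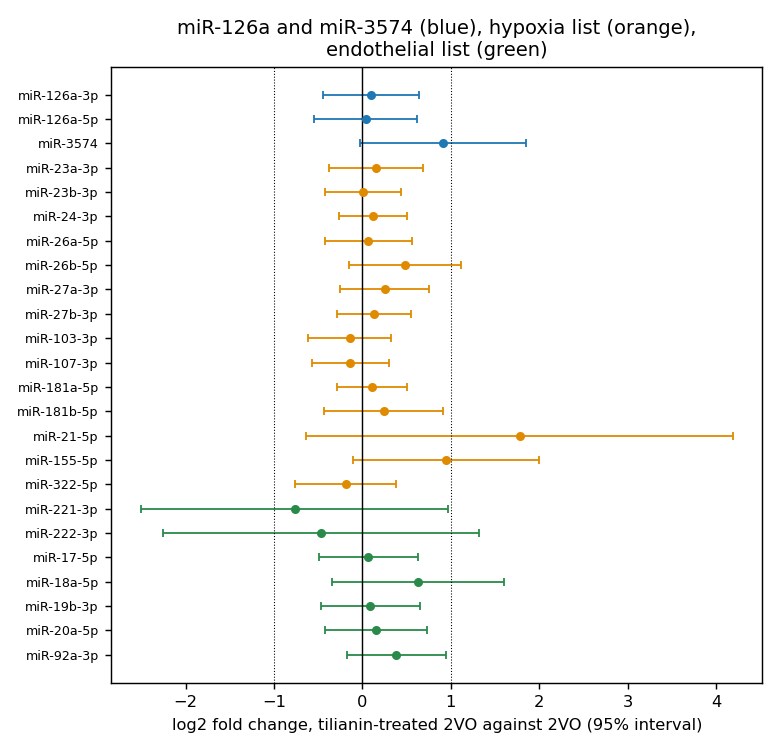
Log2 fold change between the groups (x axis, positive where higher with tilianin) with approximate 95% intervals for miR-126a and miR-3574 (blue), the tested miRNAs of the hypoxia list (orange) and of the endothelial list (green). Dotted lines mark an absolute log2 fold change of 1. The intervals of rno-miR-126a-3p, -0.45 to 0.64, and rno-miR-126a-5p, -0.55 to 0.62, lie within these lines, and that of miR-3574 reaches from -0.03 to 1.85.

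The defining markers of mural cells of the vessel wall, miR-143 and miR-145, were near 0, with a summed level of 1.53 to 3.11 CPM across the 2VO libraries and 2.17 to 3.30 CPM across the treated libraries. All 4 are annotated on the minus strand, and 0 of the 3 tested were called, beside 5.73% of all tested miRNAs. rno-miR-143-3p, the highest of them, was at 1.41 ± 0.466 CPM and 2.03 ± 0.778 CPM (SD, n = 3 each). The next was rno-miR-145-3p, at 0.409 ± 0.318 CPM and 0.534 ± 0.351 CPM (SD, n = 3 each). In these bulk libraries, fewer cells of a type, less RNA per cell and the strand division of the counts cannot be told apart.

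Of all tested miRNAs, 21 were called upward (4.63%) and 5 downward. With all 6 libraries, the called miRNAs of the lists had adjusted p-values of 0.591 to 0.637 (edgeR's quasi-likelihood test). Of the miRNAs of blood, 1 of 2 tested on the erythroid list and 1 of 4 on the leukocyte and platelet list were called, each upward. rno-miR-486, of erythroid cells, was at 152, 156 and 198 CPM in 2VO replicates 1, 2 and 3 and at 406, 876 and 338 CPM in the treated replicates, so that its groups did not overlap, as for 9.69% of all tested miRNAs. Its log2 fold change was 1.68, and it was called upward with any 1 library left out. Without treated replicate 2 the log2 fold change of rno-miR-486 was 1.16 (unadjusted p = 0.000113, adjusted p = 0.0167, edgeR's quasi-likelihood test). rno-miR-144-3p, the other tested erythroid miRNA, was at 0.926 ± 1.18 CPM and 1.45 ± 1.81 CPM (SD, n = 3 each), and rno-miR-451-5p, the defining erythroid miRNA, had 6 counts in all. The called leukocyte miRNA was rno-miR-223-3p, at 5.10 ± 1.16 CPM and 13.4 ± 9.63 CPM. Its log2 fold change of 1.39 became 0.65 without treated replicate 2, and its call was also lost without 2VO replicate 1 or 2. The most abundant of that list, rno-miR-150-5p and rno-miR-142-5p, had log2 fold changes of 0.16 and 0.54 and were not called. rno-miR-142-3p, at 0.98, was called upward only without treated replicate 1 (1.39, unadjusted p = 0.00939, adjusted p = 0.421, edgeR's quasi-likelihood test). The median of the leukocyte and platelet list was 0.76, and 0.37 without treated replicate 2. The summed level of the erythroid list was 155 to 199 CPM in 2VO libraries and 338 to 881 CPM in treated libraries. Nearly all of it was rno-miR-486, so this sum repeats the values of that miRNA. The summed level of the leukocyte and platelet list was 773 to 1156 CPM and 993 to 1393 CPM.

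On the choroid plexus list 3 of 4 tested miRNAs were called upward, rno-miR-204-5p, rno-miR-204-3p and rno-miR-211-5p, beside the 4.63% of all tested miRNAs. The other, rno-miR-449a-5p, had a log2 fold change of -0.59 and was not called. rno-miR-204-5p was at 129, 146 and 118 CPM in the 2VO libraries and at 342, 1064 and 118 CPM in treated replicates 1, 2 and 3, so treated replicate 3 lay within the 2VO range. Without treated replicate 2, 1 of the 4 was called, rno-miR-211-5p, and the log2 fold change of rno-miR-204-5p was 0.83 in place of 1.95. The list also had 1 call without 2VO replicate 1 or 3, and 2 without 2VO replicate 2. On the mesenchymal list rno-miR-214-3p, the only tested one of 4, was called upward, also with any 1 library left out. It had 134 counts in all, at 1.32 ± 0.481 CPM and 4.15 ± 0.964 CPM (SD, n = 3 each). Its log2 fold change was 1.66 (adjusted p = 0.591, edgeR's quasi-likelihood test). The other 3 of this list had at most 1 count each. The summed choroid plexus level, nearly all of it rno-miR-204-5p, was 120 to 152 CPM in 2VO libraries. It was 123 to 1078 CPM in treated libraries, the highest being treated replicate 2. On the neuronal list, led by rno-miR-124-3p and rno-miR-9a-5p, 0 of 8 were called, beside 5.73% of all tested miRNAs called in either direction. Its median log2 fold change was -0.30, or -0.08 without treated replicate 2. rno-miR-137-3p of this list was called downward without treated replicate 3. On the oligodendrocyte list 0 of the 2 tested, rno-miR-338-3p and rno-miR-219a-2-3p, were called, beside the same 5.73%. All 4 of this list are annotated on the minus strand, so the strand division limits their levels. The summed level was 18.2 to 35.3 CPM in 2VO libraries and 17.5 to 50.5 CPM in treated libraries, the highest being treated replicate 2. The median log2 fold change was 0.11, and -1.20 without treated replicate 2. In that fit rno-miR-219a-2-3p, with 18 counts over all 6 libraries, was at -2.40 and rno-miR-338-3p at -0.003. The treated libraries that remained held rno-miR-219a-2-3p at 0.109 and 0 CPM. For both arms of miR-126a the difference between the group means was smaller than the SD of the 2VO libraries. The part of these lists in the values of rno-miR-126a-3p was not tested.

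The miRNAs with the pattern most like that of rno-miR-126a-3p across the 6 libraries, other than its 5p arm, were rno-miR-23a-3p (Pearson r of 0.923), a miRNA predicted by the authors (0.921) and rno-miR-382-5p (0.880), among 267 compared. They were chosen for this likeness, so no test is given. rno-miR-23a-3p was at 1998, 1844 and 2757 CPM in 2VO replicates 1, 2 and 3 and at 2369, 2187 and 2785 CPM in treated replicates 1, 2 and 3. As for rno-miR-126a-3p, 2VO replicates 1 and 2 were the lowest libraries. The predicted miRNA had nearly the same counts as rno-miR-23a-3p in every library, so the pair may be 1 signal. miR-23a is also on the hypoxia list.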

How the data were processed

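The authors deposited raw counts of reads per mature miRNA, without normalization, for 6 rat brain small RNA libraries made with a TruSeq kit. The submitters' processing notes name FastQC 0.11.2, Trimmomatic 0.36, cutadapt 1.14 and DESeq2 1.12.4. The aligner, the counting program, its strand setting and the genome build are not given in the sources used here. Libraries were mapped to columns by the library code in their labels. Totals of 7175872 to 13198776 counts per library set the precision.

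The 454 of 775 miRNAs whose counts summed to 10 or more were scaled by TMM and fitted in R 4.3.3, with group as the only term, by the quasi-likelihood test of edgeR 4.0.16. DESeq2 1.42.0 and limma 3.58.1 served as alternatives. Calls used the study's thresholds. Approximate standard errors and 95% intervals came from the F statistic. Exact permutation in scipy 1.17.1 was used for single values. The planned ratio and correlation with miR-210 were void at 0 counts. The code was tested on simulated data.

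Named miRNAs were the members, miRNAs sharing their seeds, those with genes within 10 kb in GRCr8, the 3 most correlated with miR-126a-3p, and on each list those called and the 2 most abundant. One of the most correlated, an authors' predicted miRNA, is described without its name. rno-miR-21-5p, rno-miR-181c-5p, rno-miR-451-5p, rno-miR-155-5p, rno-miR-142-3p, rno-miR-137-3p, rno-miR-449a-5p and the 3 most abundant minus-strand miRNAs were named after their values were seen. The lists (hypoxia, endothelial, mural, mesenchymal, erythroid, leukocyte and platelet, choroid plexus, neuronal, oligodendrocyte) and members were chosen with earlier results of these data known, and the comparison by strand and the list values with a library left out were added after the counts were seen.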

Additional observations from a re-analysis of the deposited data

How the results depend on the processing

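The alternatives were DESeq2's size factors, library totals, DESeq2's Wald test, limma-voom, filterByExpr, no filter, robust dispersion, the replicate number as a block, a prior count of 2, each library left out, and, added after the data were seen, a fit on plus-strand miRNAs alone. In each of these 16 settings 0 members were called. With the replicate block, the log2 fold change was 0.13 for rno-miR-126a-3p and 0.07 for rno-miR-126a-5p. No label says that the replicate numbers pair the libraries. Same-numbered libraries had correlations of -0.121, 0.00917 and 0.297 between their deviations from the group means. Differently numbered libraries were not compared, so these values cannot settle whether the numbers pair the libraries. The block changed no call among the members.

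The log2 fold changes of miR-126a were near 0 and changed sign in some settings. That of rno-miR-126a-3p was -0.0149 (without 2VO replicate 1) to 0.34 (without 2VO replicate 3) with each library left out. That of rno-miR-126a-5p was -0.0697 (without 2VO replicate 1) to 0.29 (without 2VO replicate 3), and -0.0271 with library totals. For rno-miR-3574 the range was 0.66 (without treated replicate 2) to 1.28 (without treated replicate 1), where it was called. For these shifts the cause was not tested. The differences in the 5p share and in the summed arms of miR-126a kept their direction, with 1 library left out, over -0.95 to -0.29 percentage points and 0.0035 to 0.34 on the log2 scale. The calls over all miRNAs, 21 upward and 5 downward, ranged from 7 and 2 (without 2VO replicate 2) to 29 and 5 (without treated replicate 1). With 0 counts for miR-210 and 8 for rno-miR-126b, depth and the table's strand division limit what can be compared.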
